A study of Homo sapiens with 12 samples.

Results

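The genes described here are 8 components of the extrinsic apoptosis pathway: the ligand gene TNFSF10, which encodes TRAIL, the receptor genes FAS, TNFRSF10A and TNFRSF10B, the adaptor FADD, the initiator caspases CASP8 and CASP10, and CFLAR, which encodes the inhibitor c-FLIP. They were taken by symbol from a table of read counts for 58735 genes, each symbol matching 1 Ensembl identifier, and all 8 passed the filter on low counts, as did 15471 genes in all. The RNA came from THP-1 macrophages, an established line derived from a monocytic leukaemia. One group of 6 libraries came from cells that had received 30 nM of a miR-122-5p mimic with RNAimax and, after 24 h and a rest, lipopolysaccharide (LPS) for 4 h, and the other group of 6 from cells given control miRNA mimic and LPS in the same way. All 12 libraries are therefore from LPS-treated, transfected cells, and no library without LPS or without a mimic was analysed here. According to the labels, the question was how miR-122-5p carried by exosomes acts on immune regulation. Whether the libraries of a group are separate cultures is not stated, and p-values here cover the spread between libraries alone, which may be technical. In bulk RNA, fewer cells expressing a gene and less RNA per cell cannot be told apart.

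In the extrinsic pathway, ligands of the tumour necrosis factor family bind death receptors at the cell surface. TRAIL binds the death receptors encoded by TNFRSF10A and TNFRSF10B, and the FAS ligand binds FAS. The occupied receptor recruits FADD through its death domain, and FADD recruits caspase-8 and caspase-10 through death effector domains. The caspases activate each other in that complex. The inhibitor c-FLIP, which resembles caspase-8 without its protease activity, enters the same complex. In macrophages and monocytes TRAIL is known as an interferon-inducible gene.

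Gene counts summed to 29473750 to 35684464 per library with miR-122-5p and 31019890 to 39468157 with control mimic. Levels are given in CPM, read counts relative to the library's TMM-scaled total, and changes as the log2 fold change of miR-122-5p over control mimic from edgeR's quasi-likelihood test, with its standard error and a p-value adjusted by the Benjamini-Hochberg method over the 15471 genes. Of 8 macrophage markers 4 were called lower and 1 higher, and they summed to 1147 to 1322 CPM with miR-122-5p and 1182 to 1446 CPM with control mimic; among them ITGAM and CSF1R were high, CD14 averaged 13.6 CPM with miR-122-5p and 17.8 CPM with control mimic, and CD68 averaged 0.239 CPM with miR-122-5p and 0.216 CPM with control mimic, with 81.7% of its exon bases shared with other genes. The T cell markers CD3D, CD3E and CD2 had 0 counts in all libraries, and the 5 T cell markers summed to 19.9 to 28.9 CPM with miR-122-5p and 19.2 to 23.9 CPM with control mimic. Nearly all of that sum was TRAC, the 1 tested T cell marker, which averaged 24.6 CPM with miR-122-5p and 20.7 CPM with control mimic and was called higher. Epithelial markers, with EPCAM at 0 in all libraries, summed to at most 0.126 CPM with miR-122-5p and 0.249 CPM with control mimic, and B cell markers to at most 5.66 CPM with miR-122-5p and 5.02 CPM with control mimic, 1 of the 4 being called higher. Fibroblast markers summed to 3.14 to 4.13 CPM with miR-122-5p and 1.67 to 4.42 CPM with control mimic. NK cell markers summed to 43.4 to 60.2 CPM with miR-122-5p and 37.0 to 50.4 CPM with control mimic, 1 of the 4 being called higher and 1 lower; the part of these markers in the results was not tested. The libraries also differed in a slope with transcript GC content, fitted to log2 CPM as its deviation from each gene's mean over the 12 libraries. This GC slope per 10 percentage points averaged 0.146 ± 0.066 with miR-122-5p and -0.146 ± 0.124 with control mimic (SD, n = 6 each, two-sided exact permutation p = 0.00216, adjusted 0.00866 over 4 library measures). The 2 means are equal and opposite by construction, so only the difference between groups, 0.293, can be read. Longest transcripts of the 8 genes ran from 39.1% GC for FAS, 40.2% for TNFSF10 and 42.6% for CASP8 to 58.6% for FADD, and values with the GC and length trends removed are given where they matter; the part of this slope in the results was not tested beyond those values.

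The mature sequence of miR-122-5p is shown first, since its seed, in capitals, is the part that pairs with target transcripts (RefSeq, GRCh38.p14, chromosome 18, 58451088 to 58451109 on the plus strand). It is followed by the strongest seed match in the longest annotated 3′ untranslated region of CASP10 (GENCODE 29, hg38), with the match in capitals and both sequences written 5′ to 3′.
hsa-miR-122-5p: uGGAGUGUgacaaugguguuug
CASP10: tgacacaactgCACTCCAgcttgggcaaca

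TNFSF10 held 1 match of the 8mer class (motif ACACTCCA), in a region of 1222 bases. CASP10, CFLAR and TNFRSF10A held matches of the 7mer-A1 class (motif CACTCCA), with 1, 3 and 1 matches of 7 or 8 bases in regions of 4574, 12714 and 1242 bases. FAS, TNFRSF10B, FADD and CASP8 held none of 7 or 8 bases. Thus 4 of the 8 genes held such a match, against 22.8% of 19436 protein-coding genes, and the best match was of the 8mer class in 3.24% of those and of the 7mer-A1 class in 14%. In 3 of those 4 genes the best match lay in a common longer stretch of letters, and CASP10, whose match is printed, is the exception. Of all genes whose best match was of the 8mer or 7mer-A1 class, 36% held that stretch somewhere in the region. For those genes it was not checked whether the stretch held the best match itself. Shares were not adjusted for the length of the region, and a match describes letters only.

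Of the 8 genes 6 fell with miR-122-5p, 1 rose and 1 was not called. Over all tested genes 50.5% were called, 26.2% lower and 24.3% higher. The median log2 fold change of the 8 was -0.74, against 0.01 for all tested genes. For 7 of the 8 genes the groups were separate, 6 with miR-122-5p below and 1 with it above, where 29.5% of all tested genes were separate, 16.1% below and 13.4% above. The falls were of unequal size, from 8.75-fold for the ligand TNFSF10 to 1.40-fold for the inhibitor CFLAR, and the 2 TRAIL receptors went in opposite directions.

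**Figure D1:**
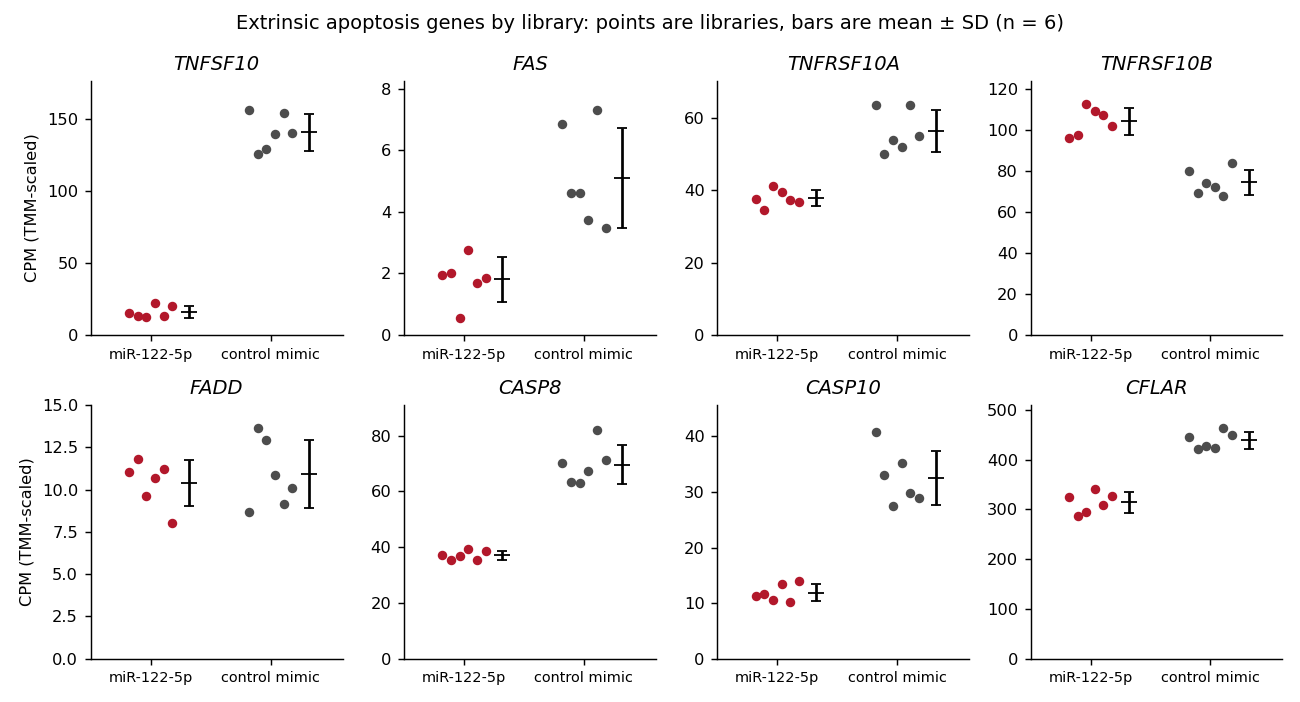
CPM (TMM-scaled, linear axis from 0) of the 8 genes in each library, miR-122-5p in red on the left of each panel and control mimic in grey on the right, with the mean and SD of 6 libraries as a bar. The groups are separate in 7 panels, with miR-122-5p above control mimic for TNFRSF10B and below it for TNFSF10, FAS, TNFRSF10A, CASP8, CASP10 and CFLAR, and they overlap for FADD.

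TNFSF10, the gene of the ligand TRAIL (chromosome 3, 172505508 to 172523507 on the minus strand, hg38), showed the largest change of the 8. With miR-122-5p its lowest, median and highest values were 12.7, 14.4 and 22.0 CPM, and with control mimic they were 125.6, 140.1 and 156.3 CPM. The highest library with miR-122-5p was thus far below the lowest with control mimic, and within the miR-122-5p group libraries 4 and 6 were the high ones at 22.0 and 20.2 CPM. The group means were 16.1 ± 3.99 CPM with miR-122-5p and 141.0 ± 12.7 CPM with control mimic (SD, n = 6 each), a log2 fold change of -3.13 ± 0.12 (edgeR, adjusted p = 2.66e-14). Of the tested genes 0.394% had a log2 fold change as low or lower. In counts, 387 to 717 reads were behind these values with miR-122-5p and 3882 to 5416 with control mimic. With GC and length trends removed the change was -2.87.

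FAS, the receptor of the FAS ligand (chromosome 10, 88990582 to 89015785), was the least abundant of the 8. Its lowest, median and highest values were 0.547, 1.91 and 2.77 CPM with miR-122-5p, and 3.47, 4.62 and 7.30 CPM with control mimic. The groups did not overlap, but counts were low, at 20 to 88 reads with miR-122-5p and 127 to 240 with control mimic. In the miR-122-5p group library 3 was low and library 4 high, and in the control group libraries 1 and 5 were high. The log2 fold change was -1.50 ± 0.26 (adjusted p = 6.81e-05), the widest error among the 8 genes. The change was -1.02 with the GC slope entered as a covariate, which ended the call (edgeR, adjusted p = 0.137, within a range over 24 settings of 5.65e-12 to 0.137). The slope did not overlap between groups (0.0336 to 0.229 with miR-122-5p, -0.318 to 0.0119 with control mimic). The covariate thus cannot be fully separated from the treatment, and with it the standard error rose to 0.47 for FAS. Of the exon bases of FAS 8.93% lie opposite ACTA2, an actin gene on the other strand. Without strand, reads from the pair cannot be told apart there.

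The TRAIL receptor genes lie together on chromosome 8 in hg38, in the order TNFRSF10B (23020133 to 23069179), TNFRSF10C, TNFRSF10D and TNFRSF10A (23190452 to 23225126). TNFRSF10A, which encodes the death receptor DR4, had lowest, median and highest values of 34.7, 37.5 and 41.3 CPM with miR-122-5p and 50.2, 54.4 and 63.6 CPM with control mimic. Every miR-122-5p library was below every control library, control libraries 1 and 5 were the high ones, and the log2 fold change was -0.57 ± 0.08 (edgeR, adjusted p = 2.41e-06). The GC slope covariate ended this call (-0.31 ± 0.11, adjusted p = 0.0598 by edgeR, 1.58e-11 to 0.0598 over 24 settings), while removal of the GC and length trends left the change at -0.55. Genes such as TNFRSF10A-AS1 cover 16.6% of its exon bases on the opposite strand.

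TNFRSF10B, which encodes DR5, moved the other way. It had lowest, median and highest values of 96.2, 104.9 and 112.6 CPM with miR-122-5p and 68.1, 73.2 and 83.9 CPM with control mimic. All 6 miR-122-5p libraries were above all 6 control libraries, of which 6 and 1 were the high ones, and the log2 fold change was 0.48 ± 0.07 (edgeR, adjusted p = 6.33e-06). The transcripts of the 2 receptors differ little in GC content. The log2 ratio of TNFRSF10A to TNFRSF10B within a library, taken on CPM without scaling for length, was -1.46 ± 0.06 with miR-122-5p and -0.41 ± 0.17 with control mimic (SD, n = 6 each). The difference of -1.05 had a two-sided exact permutation p of 0.00216, adjusted 0.00216 over 3 ratios, which is the smallest that 6 against 6 libraries can give. Since each gene alone separated the groups, in opposite directions, the ratio had to separate them too. Its p therefore adds nothing to the results of the 2 genes.

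The decoy receptors, which bind TRAIL or the FAS ligand without passing on a full death signal, were at very different levels. TNFRSF10D, a TRAIL receptor with a truncated death domain, rose with TNFRSF10B: it averaged 76.2 ± 6.66 CPM with miR-122-5p and 40.8 ± 7.97 CPM with control mimic (SD, n = 6 each; log2 fold change 0.90 ± 0.11, adjusted p = 6.41e-07 by edgeR). Its groups did not overlap. TNFRSF11B, the soluble receptor osteoprotegerin, averaged 0.256 CPM with miR-122-5p and 0.266 CPM with control mimic, with a log2 fold change of -0.03 ± 0.69 (adjusted p = 0.972) whose direction turned under 9 of the 23 settings that gave it a value. TNFRSF10C did not pass the low-count filter, with 3 to 12 counts per library with miR-122-5p and 0 to 11 with control mimic. TNFRSF6B, a soluble decoy for the FAS ligand, had 0 counts in all libraries. Its exons lie wholly within those of other genes, so these 0 counts give no level. FASLG, the ligand of FAS, also failed the filter, with 0 to 4 counts with miR-122-5p and 4 to 17 with control mimic; fitted without the filter its log2 fold change was -1.86 ± 0.84 (edgeR, adjusted p = 0.0893).

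FADD, the adaptor (chromosome 11, 70203163 to 70207390), was the 1 gene of the 8 that was not called. Its lowest, median and highest values were 8.03, 10.9 and 11.8 CPM with miR-122-5p and 8.68, 10.5 and 13.6 CPM with control mimic. The groups overlapped over most of their range, with library 6 low in the miR-122-5p group and libraries 2 and 3 high in the control group, and the log2 fold change was -0.07 ± 0.12 (edgeR, adjusted p = 0.681). FADD has the highest transcript GC content of the 8, and with the GC and length trends removed it was called lower (-0.31, adjusted p = 0.00989), as it was with the GC slope covariate (-0.68, adjusted p = 0.00465); over 24 settings the adjusted p ran from 0.00465 to 0.978. Another annotated gene, AP000879.1, covers 54.9% of its exon bases on the opposite strand, and the strand setting of the counting is not given in the sources used here, so the FADD counts are uncertain.

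The caspase genes and CFLAR stand in a row on the plus strand of chromosome 2 in hg38: CFLAR (201116104 to 201176687), CASP10 (201182881 to 201229406) and CASP8 (201233443 to 201287711), with 6193 and 4036 bases between neighbours. All 3 fell, by different amounts. CASP10, an initiator caspase, had lowest, median and highest values of 10.3, 11.5 and 13.9 CPM with miR-122-5p and 27.5, 31.4 and 40.8 CPM with control mimic. Every control library was far above the highest miR-122-5p library, and the log2 fold change was -1.46 ± 0.11 (edgeR, adjusted p = 3.18e-10). CASP8, the main initiator caspase of the pathway, had lowest, median and highest values of 35.5, 37.1 and 39.4 CPM with miR-122-5p and 63.0, 68.8 and 82.0 CPM with control mimic. The miR-122-5p libraries lay close together, with an SD of 1.58 CPM, while in the control group library 5 stood high. The log2 fold change of CASP8 was -0.90 ± 0.07 (edgeR, adjusted p = 1.94e-09), and -0.67 with the GC and length trends removed.

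CFLAR had the most counts of the 8, with lowest, median and highest values of 287.6, 317.1 and 341.2 CPM with miR-122-5p and 421.2, 435.9 and 463.5 CPM with control mimic. The groups did not overlap, and its log2 fold change was -0.48 ± 0.06 (edgeR, adjusted p = 1.20e-06). The fall was smaller with the GC and length trends removed (-0.26, adjusted p = 0.000647), and the call held in all 24 settings. CFLAR gives long and short c-FLIP proteins from different transcripts, and counts per gene do not tell these apart; 10.1% of its exon bases lie opposite genes such as CFLAR-AS1. In the miR-122-5p group libraries 4 and 6 were the highest 2 for CASP8, CASP10 and CFLAR as they were for TNFSF10.

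Within a library, CASP8 fell relative to the inhibitor. The log2 ratio of CASP8 to CFLAR was -3.08 ± 0.06 with miR-122-5p and -2.66 ± 0.09 with control mimic (SD, n = 6 each), a difference of -0.42. The log2 ratio of CASP10 to CASP8 was -1.65 ± 0.14 with miR-122-5p and -1.10 ± 0.26 with control mimic, a difference of -0.55, so that CASP10 fell more than CASP8. Groups did not overlap in either ratio, and each two-sided exact permutation p was 0.00216 at n = 6, adjusted 0.00216 over the 3 ratios. With the GC and length trends removed the differences were -0.41 and -0.63, with the same adjusted p. These ratios are on CPM without scaling for length, so that only the difference between groups is comparable.

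**Figure D2:**
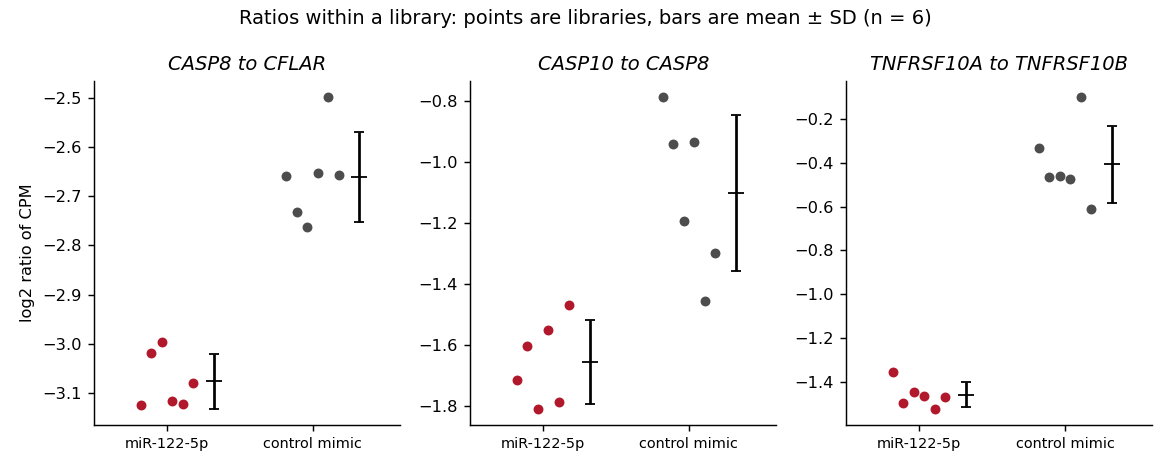
Log2 ratio of CPM of 2 genes within each library, miR-122-5p in red on the left and control mimic in grey on the right of each panel, with the mean and SD of 6 libraries as a bar. In all 3 panels every miR-122-5p library lies below every control library, with mean differences of -0.42, -0.55 and -1.05.

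Scaled for length, as CPM per kb of annotated exon, the order of the 8 genes differed between groups. With miR-122-5p TNFRSF10B led at 20.2 ± 1.28, followed by CFLAR at 13.9 ± 0.911 and TNFRSF10A at 12.9 ± 0.772, which overlapped each other. FADD (5.64 ± 0.742), CASP8 (5.13 ± 0.218) and TNFSF10 (4.64 ± 1.15) came next and overlapped, then CASP10 at 1.56 ± 0.198 and FAS at 0.425 ± 0.169 (SD, n = 6 each). With control mimic TNFSF10 led at 40.6 ± 3.65, followed by CFLAR (19.5 ± 0.748) and TNFRSF10A (19.1 ± 1.97), which overlapped, then TNFRSF10B (14.5 ± 1.20) and CASP8 (9.60 ± 0.967), then FADD (5.92 ± 1.09) and CASP10 (4.29 ± 0.646), which overlapped, and FAS (1.20 ± 0.378). Thus the ligand gene had rank 6 of the 8 with miR-122-5p and rank 1 with control mimic. Scaled by the longest transcript instead, TNFSF10 had rank 5 with miR-122-5p and CASP8 rank 3 with control mimic, so ranks between neighbours depend on the length used. The length taken for CFLAR was 22529 bases of exon, or 14672 for its longest transcript, and for TNFSF10 3473 or 1953. Without scaling, CFLAR had the highest CPM of the 8 in both groups, so the leading ranks depend on these lengths too.

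**Figure D3:**
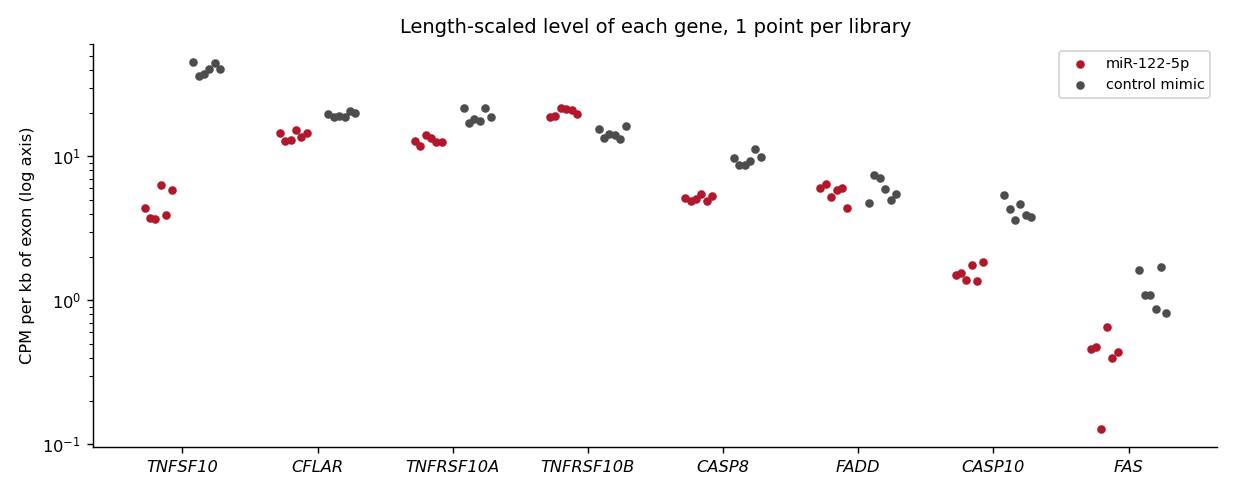
CPM per kb of annotated exon (log axis) of each gene, 1 point per library, with miR-122-5p in red to the left of control mimic in grey, genes ordered by their control mean. TNFSF10 is the highest gene in control libraries at 36.2 to 45.0 and lies at 3.67 to 6.33 in miR-122-5p libraries.

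Likeness of profiles was measured as the root mean square difference in log2 CPM, centred on each gene's mean, over the 12 libraries, against 8329 candidate genes whose log2 CPM averaged 3 or more. The profiles nearest to TNFSF10 were those of GBP4 (0.109), GBP1 (0.112) and IFI44L (0.120), where the median over all candidates was 1.59. GBP4 and GBP1 encode guanylate-binding proteins and IFI44L an interferon-induced protein. Their log2 fold changes were -3.22, -3.17 and -3.18, beside -3.13 for TNFSF10. The measure keeps the difference between groups, so for a gene of large change near profiles mostly restate a similar fold change. Likeness within groups was not tested. Nearest to CASP8 were TMEM123 (0.0658), N4BP1 (0.0713) and MTHFD2 (0.0741), and nearest to CFLAR were IST1 (0.0493), CAPRIN1 (0.0575) and RFX5 (0.0622), with medians over candidates of 0.474 and 0.302. The profiles nearest to FAS were farther away, namely PRSS23 (0.441), C2 (0.456) and SPAG1 (0.459), where the median was 0.962. FAS averaged 1.81 CPM with miR-122-5p and 5.10 CPM with control mimic, below the level asked of candidates. The part of its low counts in these distances was not tested. Among the 8 genes themselves TNFRSF10A and CFLAR were the most alike (0.107), and TNFSF10 and TNFRSF10B the least alike (1.84).

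Since TRAIL is known as an interferon-inducible gene, the promoters at hand were searched for motifs of interferon signalling. Those of TNFSF10 and CASP8, in which a motif was found, are shown from 250 bases before to 50 after the annotated start (RefSeq, GRCh38.p14, gene strand). Both strands were searched for the core of the interferon-stimulated response element (ISRE; GAAA, any 2 bases, GAAA), bound by interferon regulatory factors, and for the GAS motif TTCNNNGAA, bound by STAT dimers. Matches are in capitals, and the ISRE core reads here as its reverse complement.
TNFSF10, chr3:172523381-172523680, minus strand: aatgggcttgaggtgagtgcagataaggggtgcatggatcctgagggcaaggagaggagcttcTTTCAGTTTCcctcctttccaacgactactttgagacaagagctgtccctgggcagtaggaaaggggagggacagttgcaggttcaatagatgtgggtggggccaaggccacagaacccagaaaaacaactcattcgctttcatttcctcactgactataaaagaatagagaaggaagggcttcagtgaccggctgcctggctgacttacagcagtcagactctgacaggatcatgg
CASP8, chr2:201233213-201233512, plus strand: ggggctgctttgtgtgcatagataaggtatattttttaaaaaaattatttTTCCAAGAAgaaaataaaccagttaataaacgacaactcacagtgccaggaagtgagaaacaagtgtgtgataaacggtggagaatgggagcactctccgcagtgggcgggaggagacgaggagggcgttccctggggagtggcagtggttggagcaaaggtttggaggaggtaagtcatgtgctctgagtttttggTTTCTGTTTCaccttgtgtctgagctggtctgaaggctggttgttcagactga

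The response element core begins at position -187 in the TNFSF10 promoter and at -3 in that of CASP8, where it spans the annotated start, and the GAS motif begins at -200 in CASP8. The core was found in 3.57% of 35116 promoters of 300 bases and the GAS motif in 7.66%. Promoters were matched for 5 of the 8 genes (12 promoters, some genes having several starts), and neither motif was found in those of FAS, FADD and CFLAR or at the other 2 starts of CASP8. A match describes letters in this window only.

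The rest of the pathway was examined in 3 lists. Among the other ligands, receptors and decoys 1 of the 7 tested genes rose, 2 fell and 4 were not called, while 3 of the 10 listed failed the low-count filter (median log2 fold change -0.04). The share called was 42.9%, against 50.5% of all tested genes. TNF, the cytokine that signals through TNFRSF1A, averaged 3605 ± 564 CPM with miR-122-5p and 4966 ± 524 CPM with control mimic (-0.46 ± 0.09, adjusted p = 0.000238), and TNFRSF1A itself averaged 47.4 ± 3.74 CPM with miR-122-5p and 60.4 ± 6.20 CPM with control mimic (SD, n = 6 each; -0.35 ± 0.08, edgeR adjusted p = 0.000845). TNF values overlapped between groups and those of TNFRSF1A did not.

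Among adaptors and regulators of the receptor complex 4 of 17 tested genes rose, 8 fell and 5 were not called (median -0.05). The share called was 70.6%, 47.1% lower, against 50.5% of all tested genes, of which 26.2% were lower and 24.3% higher. RIPK1, the kinase that TNF receptor and death receptor complexes share, fell most, averaging 12.7 ± 1.47 CPM with miR-122-5p and 30.0 ± 2.59 CPM with control mimic (log2 fold change -1.23 ± 0.09, adjusted p = 3.84e-10 by edgeR). TRADD, the adaptor of TNFRSF1A, averaged 62.1 ± 8.50 CPM with miR-122-5p and 108.5 ± 7.85 CPM with control mimic (-0.80 ± 0.08, adjusted p = 7.25e-08 by edgeR), and the groups were separate for both genes. SPPL2A, a protease that cleaves FAS ligand within the membrane, and ITCH, a ubiquitin ligase that acts on c-FLIP, fell by 0.59 ± 0.08 and 0.41 ± 0.08 on the log2 scale. Those that rose were TRAF2, an adaptor of TNF receptors (0.44 ± 0.08), PEA15, a death effector domain protein (0.41 ± 0.08), DEDD2, another such protein (0.36 ± 0.09), and ARAP1 (0.26 ± 0.08). Removal of the GC and length trends ended the calls of TRAF2 (0.10), ITCH (-0.09), DEDD2 (-0.05) and ARAP1 (-0.02), turning both DEDD2 and ARAP1. The GC slope covariate also ended those of PEA15 and SPPL2A and left 3 calls in the list, all lower, against 12 without it.

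Among effector caspases and the mitochondrial branch 5 of 17 genes rose, 7 fell and 5 were not called (median -0.26). Here too 70.6% were called, with 41.2% lower, against 50.5% called and 26.2% lower over all tested genes. BAK1, a pore-forming protein of the mitochondrial membrane, and BIRC2, which encodes the ubiquitin ligase cIAP1, fell by 0.39 ± 0.08 and 0.45 ± 0.09 on the log2 scale, with groups that overlapped. They were not the largest falls of the list. Groups were separate for 5 of its 17 genes, in either direction, where 29.5% of all tested genes were separate. HTRA2 and CYCS, whose proteins are released from mitochondria, rose by 0.43 ± 0.07 and 0.39 ± 0.07, BAX, the partner of BAK1 in pore formation, by 0.42 ± 0.10, and BID, which caspase-8 cleaves to engage mitochondria, by 0.29 ± 0.07. The calls of BAX (0.14), HTRA2 (0.13) and BIRC2 (-0.12) ended with the GC and length trends removed, and the GC slope covariate left 6 calls in the list against 12.

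**Figure D4:**
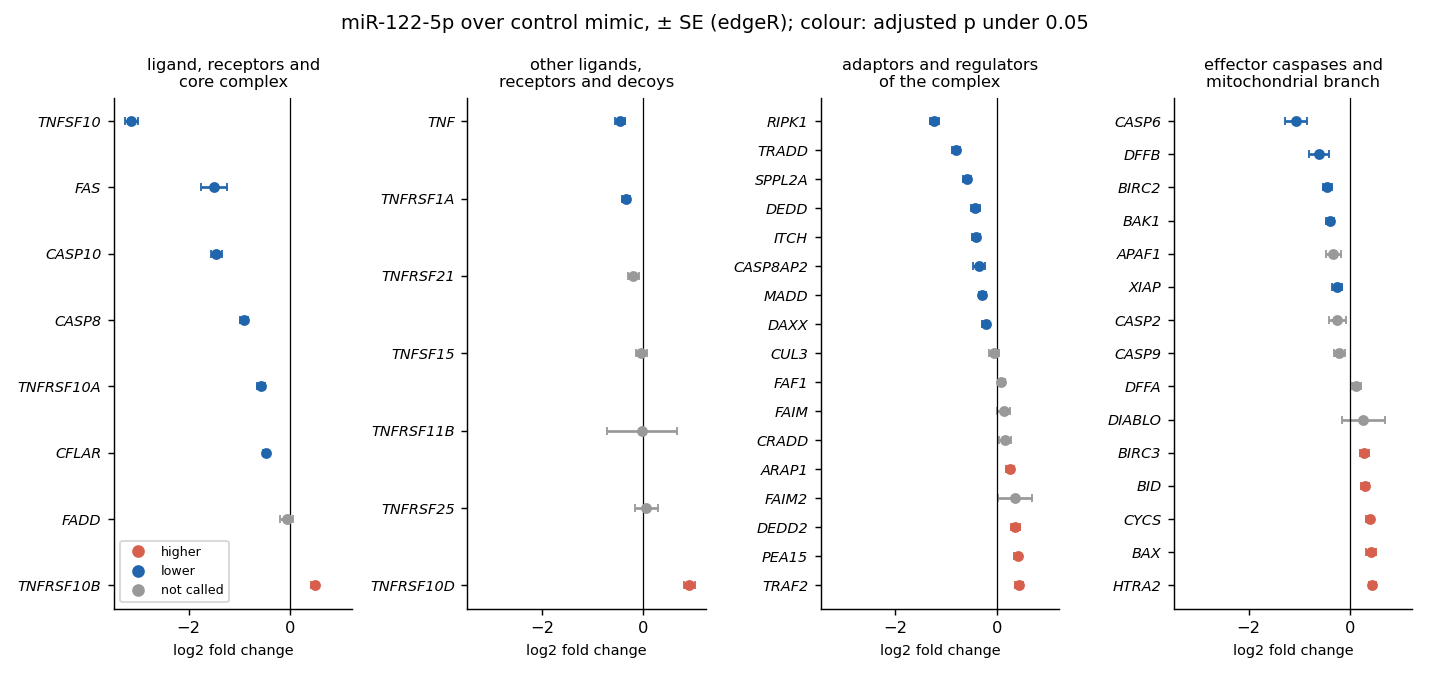
Log2 fold change of miR-122-5p over control mimic with its standard error (edgeR) for the 8 genes and the genes of 3 further lists that are reported here, each point coloured by its call at an adjusted p under 0.05. TNFSF10 lies farthest left at -3.13 and TNFRSF10D farthest right at 0.90, and the called genes of the other lists lie on both sides of 0.

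The plot of other settings shows the size of each change when a single choice was altered. TNFSF10 was the lowest and TNFRSF10B the highest of the 8 in each setting shown, and FAS moved most when single libraries were left out (-1.65 to -1.30).

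**Figure D5:**
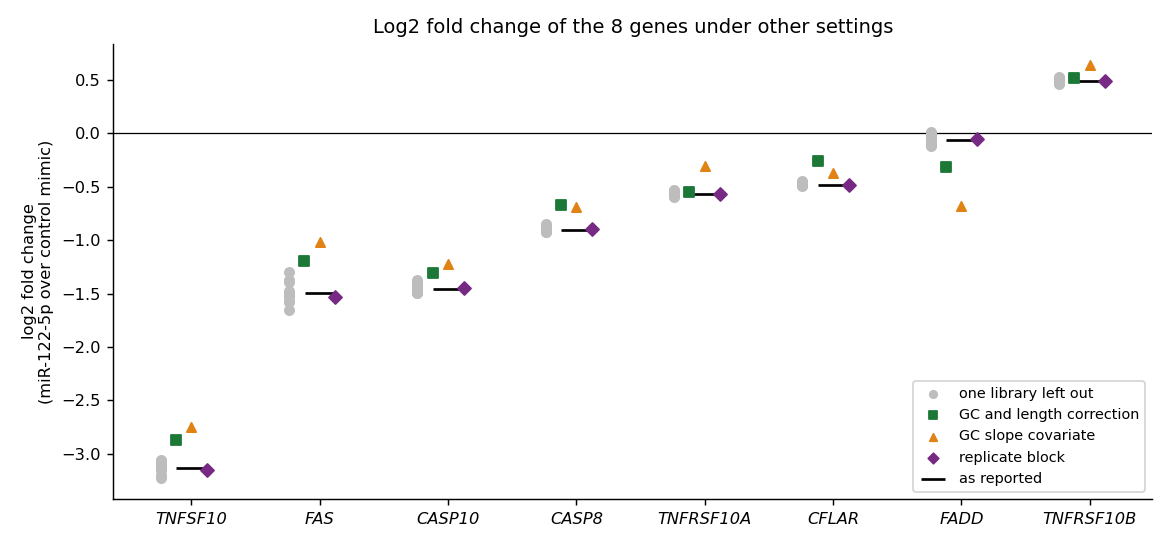
Log2 fold change of each of the 8 genes as reported (black bar), with each library left out in turn (grey), with the GC and length trends removed (green squares), with the GC slope as a covariate (orange triangles) and with the replicate number as a block (purple diamonds). FADD alone crosses 0, at -0.12 to 0.01 when single libraries are left out, and lies at -0.68 with the GC slope covariate.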

How the data were processed

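RNA of 12 libraries was sequenced; per the labels' protocols it was extracted with Trizol and 1 µg per sample entered an NEBNext Ultra RNA kit. The authors deposited 1 table of raw read counts per gene, without normalization. HISAT2 2.0.5 and featureCounts 1.5.0-p3, with the hg38 build, are listed in the submitters' processing notes; their settings, annotation and strand were not given in the sources used here. Columns were assigned by their names and numbers and the sample titles, the columns named nc being taken as the control mimic group. All 58735 identifiers were found in GENCODE 29, used for symbols, hg38 positions, lengths, GC content (longest transcript) and untranslated regions.

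In R 4.3.3, low counts were removed with filterByExpr (15471 genes kept), TMM factors computed, and groups compared with edgeR 4.0.16 (quasi-likelihood, Benjamini-Hochberg over all tested genes, threshold 0.05); the code was checked on simulated counts. Ratios and library measures were compared by two-sided exact permutation. Alternatives were DESeq2 1.42.0, limma-voom (limma 3.58.1), other scalings and filters, a block for replicate number, leaving out each library, a threshold of 0.01, no mitochondrially encoded genes, and GC corrections (splines of 4 degrees of freedom, or the GC slope of the library as a covariate). No 2 libraries of a group were alike within sampling noise: their chi-square over genes was 7.84 to 72.9 per degree of freedom. Genes named beyond the 8 are up to 4 called genes of smallest p per direction in each list, the decoy receptors and FASLG, and the 3 nearest profiles of 4 genes. Some items are not reported here, though list counts include them. The genes and lists were chosen with earlier results of these data known.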

Additional observations from a re-analysis of the deposited data

Results flagged for a closer look

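Among 76 groups of 6 values examined (named genes, ratios and library measures), 5 held a library far from the others by Dixon's test, where chance flags about 5% of groups. PEA15 was low in control mimic library 1 at 624.9 CPM, against 812.9 to 919.4 CPM in the other control libraries, and without it the log2 fold change was 0.34. DEDD2 was low in miR-122-5p library 6 at 46.2 CPM, against 61.0 to 64.7 CPM in the others of that group, and without it the log2 fold change was 0.43. The number of genes detected was high in miR-122-5p library 3 (21611, others 21081 to 21263) and low in control mimic library 6 (19298, others 20545 to 21256). The mitochondrially encoded share of counts was low in control mimic library 1 (2.30%, others 3.10 to 3.35%). None of the 8 extrinsic apoptosis genes or their 3 ratios had such a library.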

How the results depend on the processing

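Over 24 other settings the number of the 8 genes called ran from 6 to 8, and TNFSF10, TNFRSF10B, CASP8, CASP10 and CFLAR kept their call and direction in each, while FAS and TNFRSF10A lost theirs with the GC slope covariate and FADD was called with the 3 GC settings; the causes of changes with the GC settings were not tested. With the GC slope covariate 3004 genes were called in all (1117 higher, 1887 lower; 37.2% higher, against 48.1% without it), 3 of the adaptor list and 6 of the effector list. The slope did not overlap between groups, so this setting cannot fully separate it from the treatment. FADD, not called, turned direction only without single libraries (-0.12 to 0.0139); TNFRSF11B turned there too (-0.30 to 0.42), which was also higher with limma-voom (1.03), library totals (0.0167), the replicate block (0.32), the GC and length correction (0.18) and both together (0.53). DEDD2 turned to -0.046 with that correction and to -0.0402 with the block added; ARAP1 to -0.0186, to -0.0196 with the block added and to -0.11 with the GC slope covariate, which also turned BAX (-0.0705) and BIRC2 (0.0172). The 3 ratios kept sign and side of the threshold in the 15 settings run for each; without single libraries the differences ran from -0.44 to -0.38 for CASP8 to CFLAR, from -0.62 to -0.49 for CASP10 to CASP8 and from -1.09 to -0.99 for TNFRSF10A to TNFRSF10B. Same-numbered libraries did not deviate together (correlations -0.10 to 0.07, with 1 of 6 correlating best with its own number). The values thus gave no sign that numbers pair samples, though they cannot exclude shared handling. With the replicate block the 8 genes gave the same 7 calls. Low counts limit FAS, FASLG, TNFRSF10C and TNFRSF11B most.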
